A study of Mus musculus with 33 samples.

Results

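The proteasome genes of the mouse liver were compared between mice fed fenofibrate, fish oil or a control diet. Members were all genes whose symbol begins with Psma, Psmb, Psmc or Psmd followed by a number, without the immunoproteasome genes Psmb8, Psmb9 and Psmb10. The rule gave 37 genes of the 18193 with a probe set of their own. Of these, 34 were among the 9005 genes tested. A gene was tested where 10 or more of the arrays reached a log2 level of 4. Psma8, Psmb11 and Psmc3ip did not pass that filter, with highest probe set means of 2.76, 2.45 and 2.92. Psmc3ip meets the symbol rule but encodes no subunit.

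The series measured total liver RNA of 33 male C57BL/6J mice with 1 Affymetrix mouse genome array per mouse. All mice were 17 weeks old, had received their diet for 2 weeks and were fasted before killing. The 12 mice of the fenofibrate group ate a diet with sunflower oil (81.3% oleic acid) at 7% of energy and 0.03% (w/w) fenofibrate, an agonist of PPARα that is used to lower blood lipids. In the fish oil group 11 mice ate fish oil at 7% of energy, with 23.1% EPA and 21.1% DHA. The 10 control mice ate the sunflower oil at the same share of energy without the drug. Mice were housed 2 per cage and the labels do not say which shared a cage, so p-values treat mice as independent that may not be.

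The proteasome degrades proteins that carry ubiquitin chains. Its 20S core is a barrel of alpha and beta rings, and some of the beta subunits cut peptide bonds inside it. The 19S particle caps the core: a base with a ring of ATPases unfolds the substrate, receptors hold the ubiquitin chain and the lid removes it. Proteasome genes are known to be transcribed together, and the transcription factor NRF1 (gene Nfe2l1) raises them when the proteasome is inhibited. In the liver the proteasome takes part in the turnover of enzymes and secretory proteins.

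The region around the transcription start of 3 members is shown because Psmd4 and Psmb5 were among the members with the largest differences and Psmb6 is the catalytic subunit with the smallest. The sequences are from RefSeq (GRCm38.p6), 5′ to 3′ on the gene's strand, from 250 bases before to 50 bases after the start. Capitals mark matches on either strand to CCAAT, the box bound by NF-Y, and to TGACNNNGC, the core of the antioxidant response element that NRF1 and NRF2 bind. The Psmd4 region lies at chr3:95042565-95042864, minus strand, and holds 3 CCAAT boxes. The Psmb5 region lies at chr14:54617946-54618245, minus strand, and the Psmb6 region at chr11:70525107-70525406, plus strand. Each of these holds 1 antioxidant response core.
Psmd4: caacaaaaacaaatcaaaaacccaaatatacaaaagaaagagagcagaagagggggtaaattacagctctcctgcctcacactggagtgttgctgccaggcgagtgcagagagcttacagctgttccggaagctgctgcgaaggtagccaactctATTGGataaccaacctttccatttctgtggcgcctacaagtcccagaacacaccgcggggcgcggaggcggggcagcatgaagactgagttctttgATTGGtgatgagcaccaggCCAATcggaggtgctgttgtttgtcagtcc
Psmb5: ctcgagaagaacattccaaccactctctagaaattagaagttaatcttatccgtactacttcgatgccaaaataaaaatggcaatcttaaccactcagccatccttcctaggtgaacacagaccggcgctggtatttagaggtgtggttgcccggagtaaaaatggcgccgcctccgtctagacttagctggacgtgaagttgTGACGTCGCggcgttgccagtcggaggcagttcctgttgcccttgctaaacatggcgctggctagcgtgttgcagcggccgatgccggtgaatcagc
Psmb6: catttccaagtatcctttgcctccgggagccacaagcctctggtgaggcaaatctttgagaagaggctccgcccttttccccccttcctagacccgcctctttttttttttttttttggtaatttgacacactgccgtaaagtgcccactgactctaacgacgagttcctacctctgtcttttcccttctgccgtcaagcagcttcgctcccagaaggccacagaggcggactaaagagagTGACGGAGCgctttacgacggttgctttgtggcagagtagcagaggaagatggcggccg
Of the 28 measured members with a promoter in the table, 5 held TGACNNNGC (17.9%, against 17.3% of the 7391 genes tested that have a promoter there). CCAAT stood in 11 of the 28 (39.3%, against 43.1%). Both shares were near those of all genes tested. The exact direct repeat of AGGTCA with 1 base between, a form of the site bound by PPAR and RXR, stood in 0 of the 28 (0.0271% of the genes tested). These matches are descriptions of the letters in these windows.

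The members were bright on every diet. Their mean log2 level ran from 8.48 (Psmd10) to 12.52 (Psma3), with a median of 11.16, against 7.84 over all genes tested. All 34 stood above that median. Levels of different probe sets are not comparable between genes, so no order of the subunits is drawn from them. No arrays held identical values, and arrays of one diet correlated across genes at 0.968 or more. The hepatocyte genes Alb and Ttr averaged 14.93 and 14.87 on fenofibrate, 14.94 and 14.91 on fish oil, and 14.95 and 14.91 on the control diet. Of the 5 genes checked for the diets, Ehhadh was higher than control by 2.39 on fenofibrate and by 1.20 on fish oil. Acot1 was higher by 3.41 and 1.73. Fasn was higher by 0.78 on fenofibrate and differed by -2.26 on fish oil. Pdk4 was called on fenofibrate only (2.96, against -0.14 on fish oil). Sqle was called on fish oil only (-5.01, against -0.44 on fenofibrate). The difference between the 3′ and 5′ probe sets of actin, a sign of RNA quality, had medians of 1.15 on fenofibrate, 1.20 on fish oil and 1.17 on the control diet. Its highest values were 1.27, 1.29 and 1.57 in the same order, so the control diet reached furthest.

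Most proteasome genes were higher on fenofibrate, by small amounts. In the comparison with control, 26 of 34 measured members were called higher and 0 lower (limma over all 9005 genes, Benjamini-Hochberg adjusted p under 0.05). Of all genes tested, 22% were called higher and 18.9% lower. At an unadjusted p under 0.05, 27 members were higher and 0 lower, against 4313 of the 9005 genes tested in either direction. The median log2 difference of the members was 0.20, against 0.00 over all genes tested, and 33 of 34 differences were positive. The largest was 1.49-fold. All differences below are log2 differences of group means ± SE, with n = 12 fenofibrate, n = 11 fish oil and n = 10 control arrays.

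**Figure D1:**
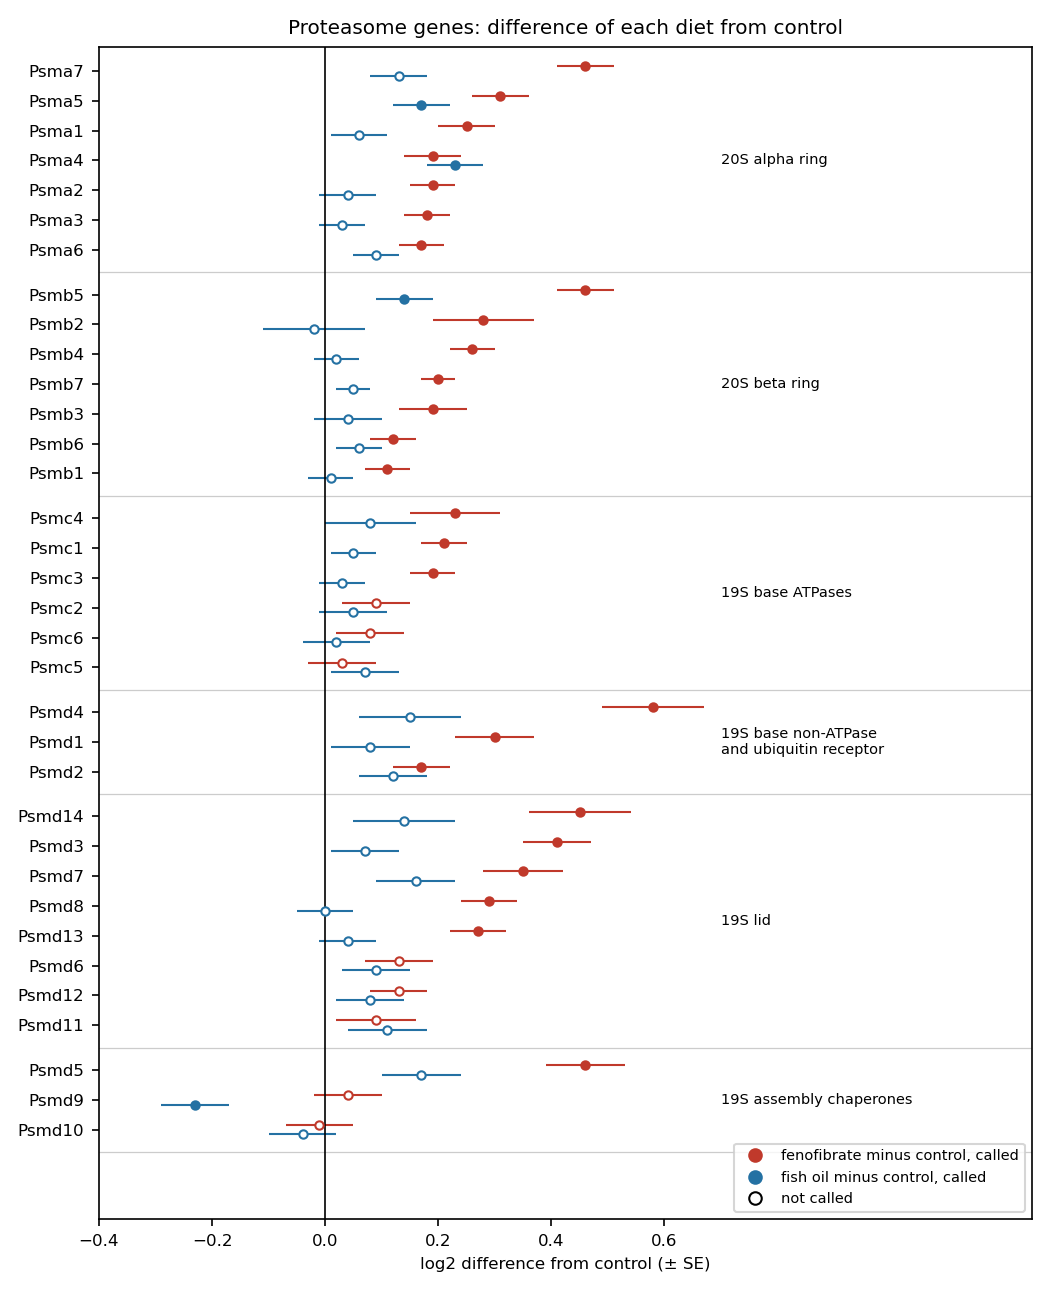
Log2 difference from control (± SE, x axis) of the 34 measured proteasome genes, by role, on fenofibrate (red, n = 12) and fish oil (blue, n = 11), each against 10 control arrays. Filled points passed the test. On fenofibrate 33 of the points lie right of 0, and all 14 genes of the 20S core are filled, while 3 filled points of fish oil lie right of 0 and 1, Psmd9, lies left of it.

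All members of the core that were measured rose on fenofibrate, against 22% of all genes tested. In the alpha ring, which gates the entry to the core, 7 of 7 were called higher, with differences from 0.17 (Psma6) to 0.46 (Psma7). On fenofibrate arrays Psma7 (probe set 1423567_a_at) ran from 10.94 to 11.43 with a median of 11.05, on fish oil arrays from 10.50 to 10.90 (median 10.77) and on control arrays from 10.45 to 10.72 (median 10.64). The fenofibrate values lay above every value of both other groups. Psma7 rose by 0.46 ± 0.05 over control (1.38-fold, adjusted p = 9.07e-09). Psma5 had values of 11.39 to 11.59 (median 11.47) on fenofibrate, 11.08 to 11.50 (median 11.41) on fish oil and 11.01 to 11.34 (median 11.15) on control. Fenofibrate and control did not overlap for Psma5, and it rose by 0.31 ± 0.05 (adjusted p = 4.67e-06). Groups did not overlap between fenofibrate and control for 6 members in all, against 5.41% of the genes tested.

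In the beta ring 7 of 7 measured members rose (22% of all genes tested did), among them the 3 that carry the active sites. Psmb5, the chymotrypsin-like subunit (1415676_a_at), ran from 11.34 to 11.71 on fenofibrate (median 11.51), from 11.02 to 11.33 on fish oil (median 11.18) and from 10.96 to 11.29 on control (median 11.03). All fenofibrate values lay above those of both other groups, and the highest control, replicate 1, stood apart from the other 9, which ran up to 11.10. Psmb5 rose by 0.46 ± 0.05 (1.37-fold, adjusted p = 9.47e-10). Psmb7, the trypsin-like subunit, had 12.05 to 12.26 on fenofibrate (median 12.16), 11.88 to 12.11 on fish oil (median 12.01) and 11.89 to 12.03 on control (median 11.96). Fenofibrate and control did not overlap, and the difference was 0.20 ± 0.03 (adjusted p = 1.15e-05). Psmb6, the caspase-like subunit, had 11.37 to 11.64 on fenofibrate (median 11.49), 11.30 to 11.58 on fish oil (median 11.46) and 11.29 to 11.53 on control (median 11.37). The 3 groups overlapped for Psmb6, and it rose by 0.12 ± 0.04 (adjusted p = 0.0101). Of the 3 catalytic subunits Psmb5 had the largest difference and Psmb6 the smallest; whether these sizes differ was not tested.

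The other beta subunits have a structural part in the ring. Psmb4 rose by 0.26 ± 0.04 with no overlap between fenofibrate and control, and Psmb2 by 0.28 ± 0.09 with overlap. Psmb2 ran from 8.56 to 9.38 on fenofibrate (median 8.90), from 8.34 to 8.97 on fish oil (median 8.64) and from 8.35 to 8.87 on control (median 8.77). Psmb2 had the widest spread of the beta ring, with an SD of 0.25 on fenofibrate. Psmb1 had the smallest difference of the ring, 0.11 ± 0.04 (adjusted p = 0.0293), and lost the call without fenofibrate replicate 3 or 5, without control replicate 3 or 9 and without control replicates 1, 2 and 9 (adjusted p = 0.102). It also lost it with no filter, with centred arrays, with only the 2 groups compared and with label pairs as a random block (adjusted p = 0.0532, 0.0537, 0.0665 and 0.0606). The Psmb2 call was also lost without control replicates 1, 2 and 9 (adjusted p = 0.0681).

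**Figure D2:**
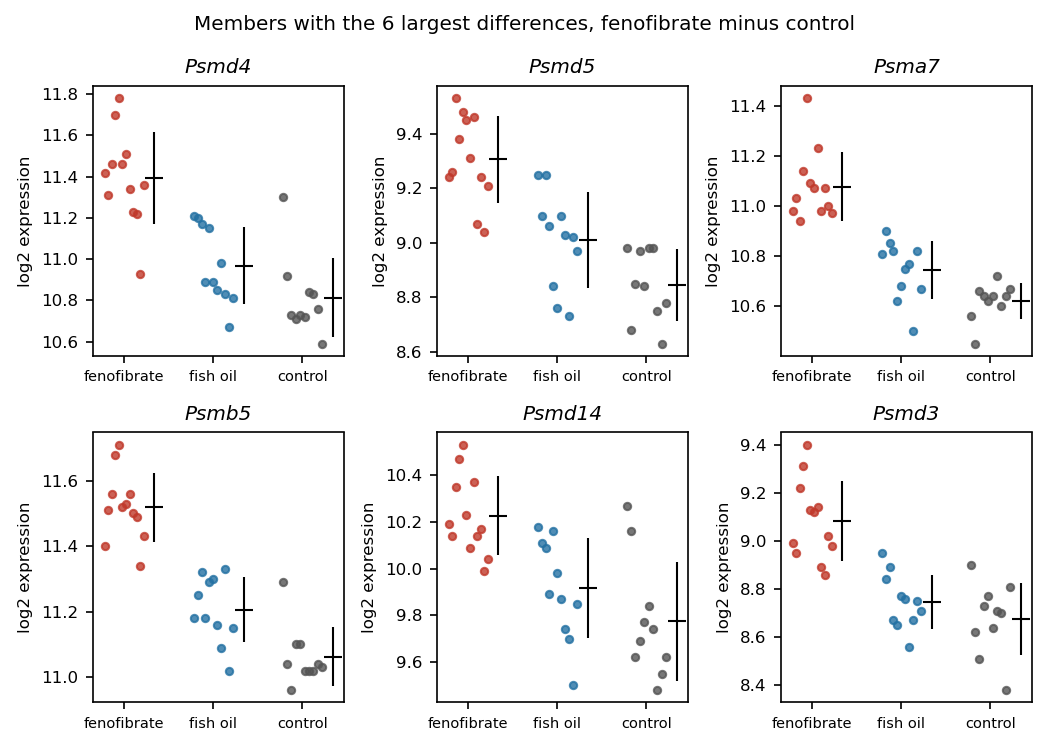
Log2 expression (y axis) on each array of the 6 members with the largest difference between fenofibrate and control, with fenofibrate (n = 12), fish oil (n = 11) and control (n = 10) from left to right; points are mice and the bars show mean ± SD. Fenofibrate lies above control without overlap for Psmd5, Psma7 and Psmb5, and 1 control of Psmd4 stands at 11.30.

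In the 19S particle 11 of 17 members rose on fenofibrate and 0 fell, against 22% and 18.9% of all genes tested. At an unadjusted p under 0.05 it was 12 of 17, against 4313 of the 9005 genes tested. The 3 members of the base that are no ATPases all rose. Psmd4, a receptor that binds ubiquitin chains (1418874_a_at), had the largest difference of all members. It ran from 10.93 to 11.78 on fenofibrate (median 11.39), from 10.67 to 11.21 on fish oil (median 10.89) and from 10.59 to 11.30 on control (median 10.75). The groups overlapped, since control replicate 1 stood at 11.30 and the other 9 controls ran from 10.59 to 10.92. Psmd4 rose by 0.58 ± 0.09 (95% interval 0.41 to 0.75, 1.49-fold, adjusted p = 1.52e-06), and a second probe set, 1425859_a_at, gave 0.63 ± 0.08. The large scaffold subunits Psmd1 and Psmd2 rose by 0.30 ± 0.07 and 0.17 ± 0.05. Of the 6 ATPases, Psmc4 (0.23 ± 0.08), Psmc1 (0.21 ± 0.04) and Psmc3 (0.19 ± 0.04) rose, while Psmc2 (0.09 ± 0.06), Psmc6 (0.08 ± 0.06) and Psmc5 (0.03 ± 0.06) did not pass the test.

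Of the 8 lid genes 5 rose, against 22% of all genes tested. Psmd14, the enzyme that cuts the ubiquitin chain from the substrate, had 9.99 to 10.53 on fenofibrate (median 10.18), 9.50 to 10.18 on fish oil (median 9.89) and 9.48 to 10.27 on control (median 9.72). Fenofibrate was higher by 0.45 ± 0.09 (1.37-fold, adjusted p = 1.33e-04), with overlap between all 3 groups. Psmd3, a lid subunit, ran from 8.86 to 9.40 on fenofibrate (median 9.07), from 8.56 to 8.95 on fish oil (median 8.75) and from 8.38 to 8.90 on control (median 8.70). Fenofibrate overlapped with control only at its lower end, and Psmd3 rose by 0.41 ± 0.06 (adjusted p = 3.63e-06). Psmd7, the partner of Psmd14 in the lid, had 9.35 to 10.08 on fenofibrate (median 9.83), 9.47 to 9.87 on fish oil (median 9.60) and 9.33 to 9.73 on control (median 9.45). It rose by 0.35 ± 0.07 (adjusted p = 8.36e-05). Several fenofibrate arrays, among them replicates 3, 10 and 11 (9.69, 9.70 and 9.35), lay within the control range. Psmd8 (0.29 ± 0.05) and Psmd13 (0.27 ± 0.05) rose as well, whereas Psmd6 (0.13 ± 0.06), Psmd12 (0.13 ± 0.05) and Psmd11 (0.09 ± 0.07) did not pass. Psmd12 (adjusted p = 0.0601) passed in 8 of the 48 alternative settings, among them the replicate block and the fits without control replicate 1, control replicate 2 or fenofibrate replicate 11. Psmd6 passed in 5, among them the fits without control replicates 1, 2 and 9 and without fenofibrate replicate 7.

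Of the 3 chaperones that assemble the base 1 rose, against 22% of all genes tested. Psmd5 had 9.04 to 9.53 on fenofibrate (median 9.28), 8.73 to 9.25 on fish oil (median 9.03) and 8.63 to 8.98 on control (median 8.85). All fenofibrate values lay above all controls, and Psmd5 rose by 0.46 ± 0.07 (1.38-fold, adjusted p = 1.41e-06). Psmd9 (0.04 ± 0.06) and Psmd10 (-0.01 ± 0.06) did not pass. Their 95% intervals were -0.09 to 0.17 and -0.12 to 0.11.

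A gene can have several probe sets. Of 20 further probe sets of 15 members, 17 gave a positive difference between fenofibrate and control. Among 15203 probe sets, 10 of these were called higher and 0 lower. The share called over all probe sets is not given here, and over genes it was 22% higher and 18.9% lower. For Psma3 a dim probe set (1441707_at, mean 5.19) gave -0.21 ± 0.18, while the bright one (1448442_a_at) gave 0.18 ± 0.04. For Psmd13 probe sets 1445729_at and 1437220_x_at gave -0.15 ± 0.09 and 0.08 ± 0.05 and did not pass, against 0.27 ± 0.05 on 1422459_a_at. With the mean of the probe sets in place of the brightest, Psma1, Psma3 and Psmd13 lost the call, and Psmc6 and Psmd6 gained it.

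The member values moved with the array label number, a running number in the labels whose meaning they do not give. The mean over the 34 members on one array ran from 10.79 to 11.11 on fenofibrate (median 10.91), from 10.65 to 10.89 on fish oil (median 10.75) and from 10.64 to 10.89 on control (median 10.68). Label numbers 1 to 17 held 8 fenofibrate, 5 fish oil and 4 control arrays, with means of 10.98, 10.85 and 10.74. Label numbers 18 to 34 held 4, 6 and 6 arrays, with means of 10.84, 10.70 and 10.68. Fenofibrate and fish oil were thus higher among the low numbers. For control the gap rested on replicate 1, without which the mean for 1 to 17 was 10.69. Fenofibrate had more of its arrays at low numbers, and those 8 carried the consecutive numbers 7 to 14. Within label numbers 1 to 17 the median difference of the members between fenofibrate and control was 0.23, with 20 called higher (15% of all genes tested). Within 18 to 34 it was 0.15, with 12 called higher (10.8%). With the label range as a term in the fit 25 members rose (21.3% of all genes tested), with a median of 0.18. Psmb5, Psmd4, Psma7, Psmd5, Psmd14, Psmd3, Psmd8, Psma5 and Psmb4 kept the call of fenofibrate over control under all 48 alternative settings. Consecutive label numbers deviated together: in 13 of 16 pairs both arrays lay on the same side of their group means. Both arrays of a pair came from the same diet. The correlation within pairs, estimated over all genes, was 0.23, and the main fit does not allow for it. Whether a pair is a cage is not known. With these pairs as a random block 25 members were called higher, and 3117 of all 9005 genes were called in either direction.

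**Figure D3:**
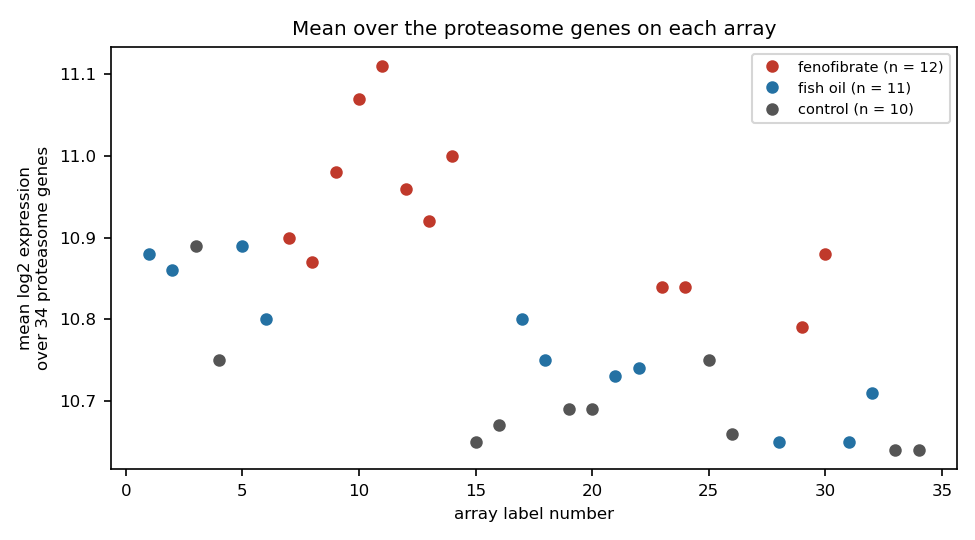
Mean log2 expression over the 34 measured proteasome genes on each array (y axis) against the array label number (x axis), for fenofibrate (red, n = 12), fish oil (blue, n = 11) and control (grey, n = 10). Fenofibrate arrays run from 10.79 to 11.11 and stand above most arrays with neighbouring numbers, and the fish oil arrays with low numbers lie above those with high ones.

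Fish oil changed few proteasome genes. In the comparison with control 3 of 34 members were called higher and 1 lower, against 7.53% and 7.00% of all genes tested, so that the shares of the members (8.82% and 2.94%) were near the background or below it. At an unadjusted p under 0.05, 8 members were higher and 1 lower. Of the 9005 genes tested 2416 passed it in either direction, a share near that of the members. The median difference was 0.07, against 0.01 over all genes tested, and 31 of 34 differences were positive. No member had fish oil and control values without overlap (1.05% of all genes tested did). Differences of fenofibrate and of fish oil from control share the 10 control arrays.

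The alpha ring gene Psma4 had the largest rise on fish oil. It ran from 11.41 to 11.69 on fish oil (median 11.60) and from 11.18 to 11.48 on control (median 11.36), and on fenofibrate from 11.34 to 11.75 (median 11.53). Most fish oil values lay above the controls, with a difference of 0.23 ± 0.05 (1.17-fold, adjusted p = 0.00122). Psma4 also rose on fenofibrate (0.19 ± 0.05), and between the drug and the oil its difference was -0.05 ± 0.05 (95% interval -0.14 to 0.05). Psma5 rose by 0.17 ± 0.05 (adjusted p = 0.0206) and Psmb5 by 0.14 ± 0.05 (adjusted p = 0.0363), with the values given above and overlap in both. With only the 2 groups compared and with label pairs as a random block Psma5 did not pass (adjusted p = 0.0539 and 0.0563), nor did Psmb5 (adjusted p = 0.0507 and 0.0735). The Psmb5 call was lost without any 1 of 12 arrays, which were fish oil replicates 2, 3, 5, 6 and 9 and control replicates 2, 3, 6, 7, 8, 9 and 10, and within label numbers 1 to 17 its adjusted p was 0.305. Of the 19S particle 0 of 17 members were called, with differences from 0.00 (Psmd8) to 0.16 (Psmd7). At an unadjusted p under 0.05 it was 2 of 17, against 2416 of the 9005 genes tested. Psmd5 (0.17 ± 0.07), Psmd7 (0.16 ± 0.07) and Psmd4 (0.15 ± 0.09), which rose on fenofibrate, did not pass on fish oil, and each was higher on fenofibrate than on fish oil (adjusted p = 5.51e-04, 0.0229 and 1.16e-04). Against control, Psmd5 passed on fish oil without fish oil replicate 9, Psmd7 and Psmd4 passed with array weights, and Psmd5 and Psmd7 passed without the arrays whose label number carries an A.

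Psmd9, a chaperone of the base, fell on fish oil. It had 8.83 to 9.10 on fish oil (median 8.97) and 8.91 to 9.50 on control (median 9.20), and on fenofibrate 9.05 to 9.59 (median 9.20). Fish oil lay at the lower end of the controls, with a difference of -0.23 ± 0.06 (adjusted p = 0.0127). A second Psmd9 probe set, 1447670_at, gave -0.37 ± 0.21 and did not pass. Without control replicates 1, 2 and 9 the call was lost (adjusted p = 0.0539). Within label numbers 1 to 17 and 18 to 34 the members had median differences of 0.11 and 0.04 on fish oil, with 2 and 0 called higher and 0 lower in each. In these fits 2.39% and 2.09% of all genes tested were called higher.

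Between the drug and the oil, 22 of 34 members were higher on fenofibrate and 0 lower, against 19.8% and 19.1% of all genes tested. At an unadjusted p under 0.05, 24 members were higher and 0 lower, against 4208 of the 9005 genes tested in either direction. The median difference was 0.16, against -0.01 over all genes, and 31 of 34 were positive. Groups did not overlap for Psma7, Psmb4 and Psmb5 (6.34% of all genes tested). The largest differences were in Psmd4 (0.43 ± 0.08, 1.34-fold, adjusted p = 1.16e-04), Psmd3 (0.34 ± 0.06), Psma7 (0.34 ± 0.05), Psmb5 (0.31 ± 0.04), Psmd14 (0.31 ± 0.09) and Psmb2 (0.30 ± 0.09). By role, 11 of 14 core genes and 9 of 17 genes of the 19S particle were higher on fenofibrate. Psmb7 was higher by 0.15 ± 0.03, while Psmb6 did not pass (0.06 ± 0.04, 95% interval -0.02 to 0.13). Psmd9, with 9.24 ± 0.17 on fenofibrate and 8.98 ± 0.08 on fish oil (SD), was higher by 0.27 ± 0.06. Psmb1 and Psmb3 were called at 0.11 ± 0.04 and 0.15 ± 0.06 and lost the call without single arrays, Psmb1 without fenofibrate replicate 1, 3, 4, 5 or 8 or fish oil replicate 8 or 10 and Psmb3 without fenofibrate replicate 3, 4, 5, 8 or 11 or fish oil replicate 9 or 10. Psmb1 also lost it with label pairs as a random block and with the label range as a term in the fit (adjusted p = 0.0690 and 0.0553), and Psmb3 without the arrays whose label number carries an A and with array weights (adjusted p = 0.265 and 0.118). Within label numbers 1 to 17 the median was 0.13 with 10 called higher (13.4% of all genes tested). Within 18 to 34 it was 0.15 with 7 (10.0%).

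Within the diets most members varied together from mouse to mouse. After each group mean was subtracted, the median Pearson correlation over the 561 pairs of members was 0.50 over 33 arrays, and 95% of pairs were positive. Over all pairs of genes tested the median was 0.02. The arrays share the label order described above, and after means for the label ranges were removed too the medians were 0.36 and 0.01. By role the medians were 0.82 for the 3 pairs of Psmd1, Psmd2 and Psmd4, 0.58 in the alpha ring, 0.57 among the ATPases, 0.51 in the beta ring, 0.46 in the lid and 0.01 for the 3 pairs of assembly chaperones. Psmd4 had the highest median correlation with the other members (0.67). Psmd9 had the lowest (0.00), followed by Psmd8 (0.27) and Psmc4 (0.28).

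**Figure D4:**
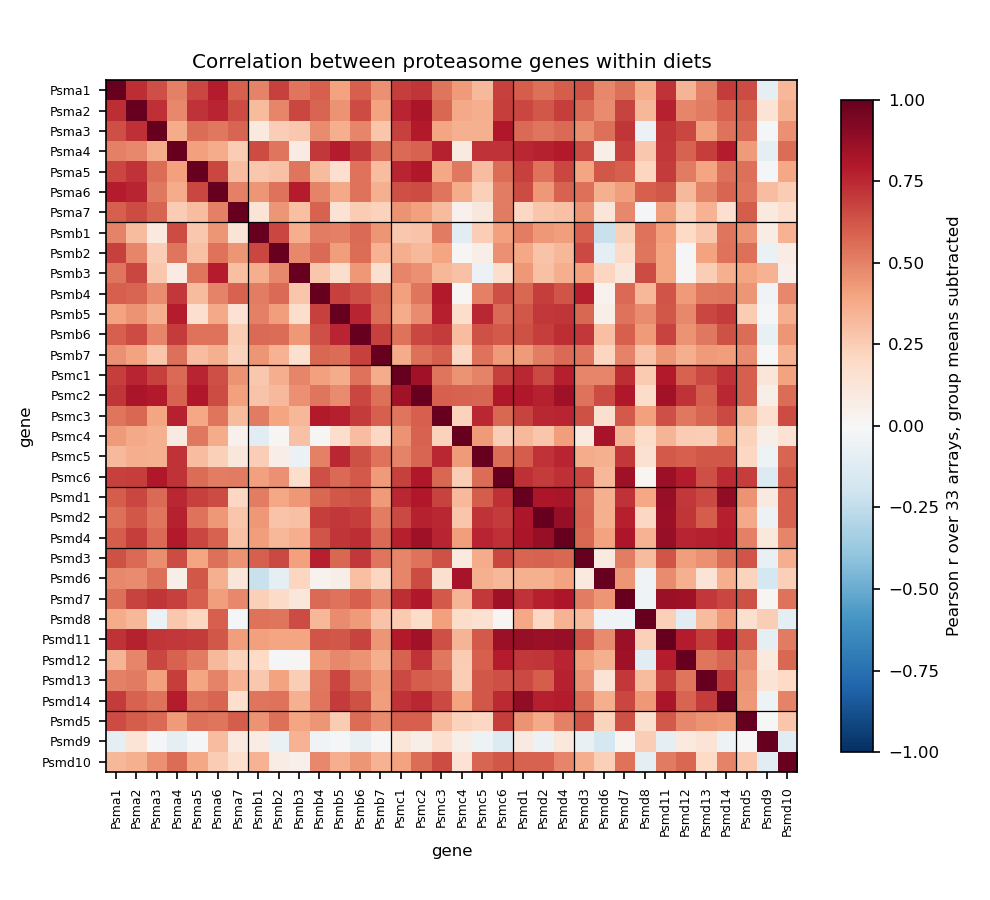
Pearson correlation between the 34 measured proteasome genes over 33 arrays after the mean of each diet was subtracted (colour, from -1 in blue to 1 in red), ordered by role, with black lines between roles. Most cells are red, with a median of 0.50, and the row of Psmd9 is pale, with a median of 0.00.

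Of the 3 immunoproteasome genes 2 fell on fenofibrate and 0 rose, against 18.9% and 22% of all genes tested. Psmb8, Psmb9 and Psmb10 encode subunits that take the places of Psmb5, Psmb6 and Psmb7 in immune cells and under interferon. Psmb8 ran from 7.81 to 8.84 on fenofibrate (median 8.51), from 8.43 to 9.21 on fish oil (median 8.78) and from 8.87 to 9.75 on control (median 9.16). Fenofibrate values lay below all controls, and Psmb8 fell by 0.74 ± 0.11 (adjusted p = 2.24e-06), while Psmb5 rose. On fish oil Psmb8 fell by 0.43 ± 0.11 (adjusted p = 0.00875). Psmb10 ran from 8.18 to 8.86 on fenofibrate (median 8.54), from 8.41 to 9.09 on fish oil (median 8.69) and from 8.56 to 9.39 on control (median 8.96). With overlap it fell by 0.44 ± 0.09 on fenofibrate (adjusted p = 1.07e-04), and on fish oil its difference of -0.21 ± 0.09 did not pass. Psmb9 did not pass on fenofibrate (-0.27 ± 0.19) or on fish oil (-0.48 ± 0.20). Psme1, part of the activator that works with the immunoproteasome, rose on fenofibrate (0.27 ± 0.05).

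Some markers of other liver cells were called lower on fenofibrate, as were 18.9% of all genes tested, while 22% were called higher. On fish oil 7.53% of all genes were called higher and 7.00% lower. Of 7 Kupffer cell markers Clec4f (-0.43 ± 0.10) and Vsig4 (-0.25 ± 0.10) fell and 0 rose (median -0.21). The Vsig4 call did not hold when control replicate 2 or 5 or fenofibrate replicate 5, 10 or 12 was left out (adjusted p up to 0.0752). The mean over the Kupffer cell list ran from 7.95 to 9.50 on fenofibrate, from 8.33 to 9.46 on fish oil and from 8.59 to 9.29 on control. Of 5 stellate cell markers 4 fell (median -0.34), with list means of 9.54 to 9.73, 9.83 to 10.11 and 9.77 to 10.11 in the same order of diets. Of 6 sinusoidal endothelial markers 1 rose and 2 fell on fenofibrate, and Clec4g, Stab2 and Stab1 fell on fish oil, with list means of 7.81 to 8.22, 7.60 to 7.90 and 7.89 to 8.26. The fish oil calls of Stab2 and Stab1 were lost without any 1 of 20 and of 13 arrays (adjusted p up to 0.108 and 0.0865). The lymphocyte marker Ighm rose (0.67 ± 0.25), while Cd3e, Cd3g, Cd79a and Nkg7 did not reach the filter. The Ighm call did not hold when fenofibrate replicate 1 or 3 or control replicate 1, 3, 4, 8 or 9 was left out (adjusted p up to 0.0677). Of 2 blood cell markers Alas2 fell (-1.04 ± 0.18), and Sox9 was the only cholangiocyte marker past the filter (-0.18 ± 0.12, not called). Of 4 hepatocyte markers 0 were called higher on fenofibrate and 2 lower, Hnf4a (-0.42 ± 0.06) and Apoa1 (-0.14 ± 0.04). Alb, Ttr and Apoa1 averaged 14.93, 14.87 and 15.19 on fenofibrate, near the highest value in the data (15.63). A small rise might not show at such levels. The part of these markers in the results was not tested, and fewer cells of a type and less RNA per cell cannot be told apart in bulk liver RNA.

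**Figure D5:**
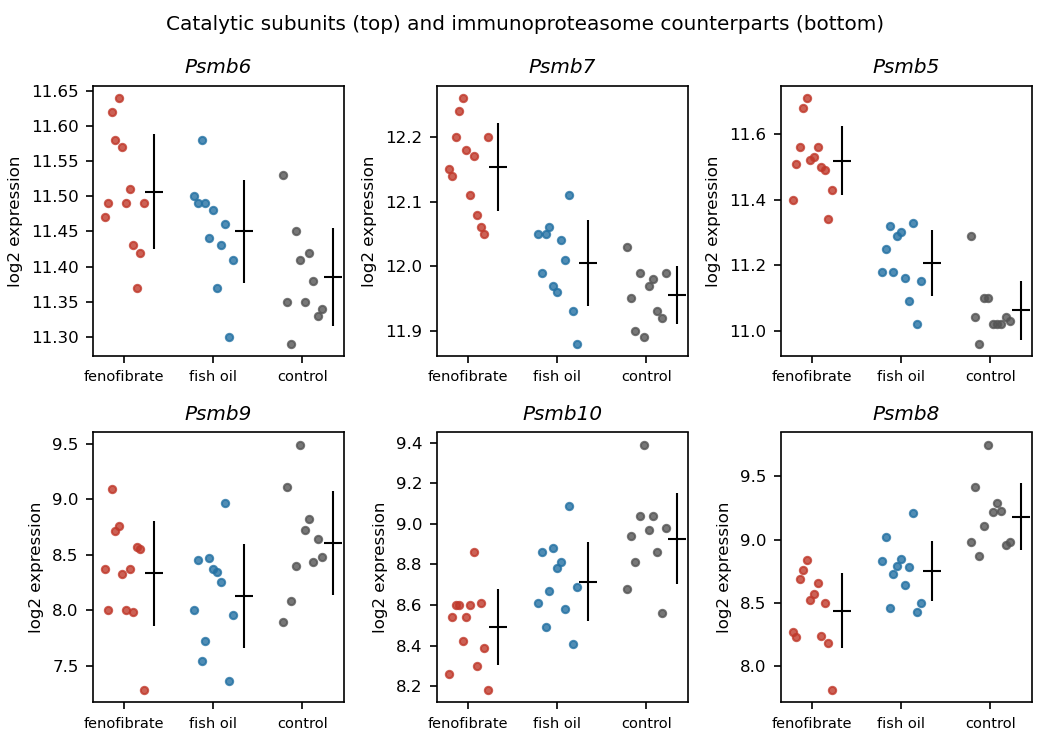
Log2 expression (y axis, a scale of its own in each panel) on each array of the catalytic subunits Psmb6, Psmb7 and Psmb5 (top) and of Psmb9, Psmb10 and Psmb8, which take their places in the immunoproteasome (bottom), with fenofibrate (n = 12), fish oil (n = 11) and control (n = 10) from left to right. Points are mice and bars show mean ± SD. Psmb5 is higher on fenofibrate than on control without overlap, and Psmb8 is lower without overlap.

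Genes that assemble, regulate or feed the proteasome rose in part on fenofibrate. The share of all genes tested that were called higher was 22% on fenofibrate and 7.53% on fish oil. Of 5 assembly factors of the core 2 rose, Psmg3 (0.25 ± 0.07) and Psmg1 (0.21 ± 0.04), which help to build the alpha ring, while Pomp, which helps the beta ring to mature, did not pass (0.09 ± 0.05). Of 6 measured components and bound factors 4 rose: the scaffold Ecpas (0.39 ± 0.13), the deubiquitinases Usp14 (0.29 ± 0.05) and Uchl5 (0.22 ± 0.07), and Txnl1 (0.16 ± 0.05). Uchl5 did not pass without control replicates 1, 2 and 9 (adjusted p = 0.0617). Psmf1, an inhibitor of the core in test-tube assays, rose by 0.34 ± 0.06, and the activators Psme3 (-0.02 ± 0.10) and Psme4 (0.04 ± 0.05) did not pass. Of 7 genes that deliver substrates 3 rose: the ATPase Vcp (0.26 ± 0.05) and the shuttles Ubqln2 (0.26 ± 0.06) and Ubqln4 (0.25 ± 0.09). The Ubqln4 call was lost without control replicate 2, 5 or 7 (adjusted p up to 0.0630). On fish oil 1 of these genes rose, Usp14 (0.24 ± 0.05), and 1 fell, the assembly factor Psmg4 (-0.27 ± 0.07, from a dim control mean of 5.25). None of the 5 listed ubiquitin genes had a probe set of its own past the filter.

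Nfe2l1, which encodes NRF1, was higher on fenofibrate, and the direction of Nfe2l2 depended on how its probe sets were summarised. Nfe2l1 had 6.51 to 7.35 on fenofibrate (median 6.92), 6.33 to 7.01 on fish oil (median 6.63) and 5.77 to 7.06 on control (median 6.45). The groups overlapped, and Nfe2l1 rose by 0.47 ± 0.10 on fenofibrate (1.39-fold, adjusted p = 4.06e-04) and did not pass on fish oil (0.15 ± 0.11). Ngly1, which processes the NRF1 protein, rose by 0.11 ± 0.04, a call that did not hold when control replicate 4 was left out (adjusted p = 0.0556). Nfe2l2, which encodes NRF2, rose by 0.20 ± 0.07 on its brightest probe set, but its difference was -0.04 with the mean of its probe sets. Of 6 measured NRF2 targets, Srxn1 (0.95 ± 0.14) and Gclc (0.45 ± 0.15) rose on fenofibrate, while Gclm, Hmox1 and Txnrd1 did not pass. Of all genes tested 22% were called higher. Nqo1 reached the filter level of 4 on fenofibrate arrays only, with 3.57 to 4.59 there (median 4.17), 2.95 to 3.89 on fish oil (median 3.49) and 2.80 to 3.90 on control (median 3.20), so it is given by its values alone. On fish oil 2 of the 6 rose, Gclc (0.65 ± 0.15) and Gclm (0.43 ± 0.08), against 7.53% of all genes tested. Without control replicates 1, 2 and 9 the fenofibrate call of Gclc was lost (adjusted p = 0.103).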

How the data were processed

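Each array measured the liver RNA of 1 mouse. The authors deposited log2 expression values per probe set, which per the submitters' processing notes came from GCRMA 2.24.1. That method models background from probe sequence and equalises the arrays' distributions, which leaves array medians of 2.9 to 2.97, and small differences of dim probe sets are compressed. Of 45101 probe sets, 64 controls were left out, 34945 carried 1 gene, 932 several and 9160 were not named here; symbols were updated by gene identifier (GRCm38.p6). Probe sets with a log2 of at least 4 in at least 10 arrays were kept, and the one with the highest mean stood for its gene (9005 genes). One limma 3.58.1 model (R 4.3.3, statmod 1.5.0) over the 3 groups was fitted and tested two-sided with Benjamini-Hochberg adjustment over all genes; it was tested on simulated data. Arrays have no depth, and their number limits the precision. Values in full were given for the 6 members with the largest difference in each comparison and for Psmb5, Psmb6 and Psmb7; further genes came from fixed lists of the pathway and of cell type markers. Members and lists were chosen with earlier results of these data known. The fits by array label number were added after the data were seen. Replicate numbers do not pair the samples: the mean correlation of deviations between arrays of one number ran from -0.15 to 0.28.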

Additional observations from a re-analysis of the deposited data

Results flagged for a closer look

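In 2 of the 34 measured members, 1 control array stood apart from the other 9 beyond Dixon's 95% critical value for 10 samples. The members were measured on the same 10 control arrays and vary together, so the 2 are not independent of each other. Psmb5 stood at 11.29 in control replicate 1, against 10.96 to 11.10 in the other controls, and Psmd4 stood at 11.30 in the same array, against 10.59 to 10.92. Without that array the differences between fenofibrate and control were 0.48 for Psmb5 and 0.63 for Psmd4, and those between fish oil and control were 0.17 (adjusted p = 0.00956, limma) and 0.21 (adjusted p = 0.0823). The mean over all 34 members was also highest among the controls in this array, at 10.89.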

How the results depend on the processing

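For fenofibrate against control 26 members were higher in the fit of all arrays, against 22% of all genes tested. Within label numbers 18 to 34, 12 were higher, against 10.8%. For fish oil against control the 3 higher members became 1 with only those 2 groups, 1 with label pairs as a random block, 5 without the arrays whose label number carries an A, 10 with array weights and 0 within label numbers 18 to 34. Calls over all 9005 genes moved too, from 678 higher and 630 lower in the fit of all arrays. In these settings, in the same order, calls in either direction numbered 1117, 845, 1587, 1956 and 418. The 1 lower member, Psmd9, became 0 with the mean of probe sets, without control replicates 1, 2 and 9, and within either label range. For fenofibrate against fish oil the 22 higher members became 10 and 7 within label numbers 1 to 17 and 18 to 34. Over all genes tested the share called higher went from 19.8% to 13.4% and 10.0%. These single-range fits hold fewer arrays. With the mean of probe sets the sign turned for Psma3 (-0.01 against control and -0.14 against fish oil), for Nfe2l2 (-0.04 against control) and for Ube3c between the diets (0.02). Leaving out 1 array at a time gave 25 to 27 higher and 0 to 0 lower members, with medians of 0.18 to 0.21, for fenofibrate against control. It gave 2 to 5 higher (5 without fish oil replicate 9), 1 to 1 lower and medians of 0.05 to 0.09 for fish oil against control, and 20 to 23 higher, 0 to 0 lower and medians of 0.14 to 0.17 between the diets. The replicate number as a block gave 27 higher and 0 lower, 3 and 1, and 22 and 0 members in the 3 comparisons; the samples share only the number. Of the 26, 4 and 22 calls, 9, 0 and 5 held in all 48 settings, and 21, 1 and 15 in the 46 settings other than the single label ranges. The causes were not tested.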
